A study of Homo sapiens with 6 samples.

Results

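The integrins and laminins, the receptors that hold a cell to its matrix and the matrix proteins that many of them bind, were followed in J82 cells after CRISPR disruption of FOXC1. The members were the 38 protein-coding genes whose symbol is ITGA with digits or a letter (ITGA2B included), ITGB1 to ITGB8, or LAMA, LAMB or LAMC with a digit, taken by name alone from a table of 57820 genes. They comprised 18 integrin alpha, 8 integrin beta, 5 laminin alpha, 4 laminin beta and 3 laminin gamma chain genes. J82 is an established human bladder cancer cell line, and RNA-seq had been made from 3 control libraries and 3 libraries labelled FOXC1 KO. Per the labels and the study's methods, FOXC1, a forkhead transcription factor gene, was targeted with Cas9 and a guide RNA carried by LentiCRISPRv2, while controls carried a vector, and both were grown in DMEM with serum. The methods describe puromycin selection and knockout clones checked by Western blot, without giving the number of clones behind the libraries, and nothing states that the 3 libraries of a group came from separate cultures, so the p-values measure only the spread between these libraries.

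Integrins are transmembrane heterodimers of an alpha and a beta chain. The alpha chain largely sets the ligand: ITGA1, ITGA2, ITGA10 and ITGA11 chains bind collagens, ITGA3, ITGA6 and ITGA7 chains bind laminins, and ITGA5, ITGAV, ITGA8 and ITGA2B chains bind fibronectin, vitronectin and related proteins that carry the RGD tripeptide. ITGB1 is the shared partner of most alpha chains, whereas ITGB4 pairs with ITGA6 in the hemidesmosomes of epithelia, and ITGB2 pairs with ITGAL, ITGAM, ITGAX and ITGAD on leukocytes. Laminins are trimers of an alpha, a beta and a gamma chain assembled inside the cell and secreted into the basement membrane, the sheet on which the urothelium rests.

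The 6 libraries held 18408134 to 25350908 counts assigned to genes. FOXC1 itself had 413, 412 and 490 counts in the control libraries and 443, 560 and 497 in the libraries labelled KO, so its transcript was not lower (log2 fold change 0.30, SE 0.091, edgeR adjusted p 0.0127) and does not check the labels. All directions below are between the labels as given. Of 15 urothelial markers KRT7, KRT8 and KRT18 were abundant (992, 1658 and 544 CPM, read counts scaled to library size, as control means), while KRT5, KRT20, CDH1, UPK1A, UPK1B and UPK3A had at most 3 counts in every library. The summed level of these 15 markers was 3178 to 3999.8 CPM in control libraries and 2488 to 2765 CPM in the libraries labelled KO. Of the 7 tested, 6 (85.7%) were called lower, beside 8.39% of all tested genes. These were KRT8, KRT18, KRT19, GATA3, PPARG and EPCAM, with log2 fold changes from -0.86 (EPCAM) to -0.42 (GATA3). KRT7 was not called (-0.07). TP63, with too few counts to be tested, went the other way. It had 1, 1 and 1 counts in control and 4, 9 and 5 in the libraries labelled KO. Summed leukocyte markers (4.46 to 5.26 against 11.5 to 12.4 CPM) moved up through CSF1R and CD14, while 7 of the 10, among them CD3E, CD2, MS4A1, LYZ, SPI1 and FCER1G, had at most 3 counts in every library and 4 had 0 in all. Summed endothelial markers lay between 0.590 and 1.90 CPM and smooth muscle markers between 1.72 and 3.59 CPM over all libraries, both higher in every library labelled KO than in any control library. Each list had a single called gene: CDH5 had 0, 0 and 1 counts in control and 18, 18 and 26 in the libraries labelled KO while KDR was not called, and CNN1 had 0, 0 and 0 and 25, 32 and 26 while MYH11 and ACTA2 were not called. CDH5 and CNN1 had enough counts to be tested only through the libraries labelled KO, so their calls are no independent test. Platelet markers (0.425 to 0.706 CPM over all libraries) and fibroblast markers (100.5 to 117 CPM) overlapped between the groups, although of the latter COL1A1 was called higher (2.21 on the log2 scale) and DCN lower (-0.82). The part of these shifts in the results below was not tested, and in such bulk libraries fewer cells of a type and less RNA per cell cannot be told apart.

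To determine which integrin and laminin transcripts differed, the groups were compared with edgeR over all genes, and a gene was called at an adjusted p under 0.05 and a change over 1.3-fold (0.38 on the log2 scale). Of the 38 members 27 had enough counts to be tested. Called lower in the libraries labelled KO were 5 (ITGA1, ITGA7, ITGB4, LAMA1 and LAMA3) and called higher were 6 (ITGA5, ITGB1, ITGB3, ITGB8, LAMB1 and LAMB3). The lower calls made up 18.5% of the tested members against 8.39% of the 15647 tested genes, and the higher calls 22.2% against 7.57%. In either direction 40.7% of the members were called against 16.0% of all genes, and without the fold threshold 15 members (5 lower, 10 higher) passed the adjusted p, against 29.4% of all genes. The median log2 fold change of the tested members was 0.13, with 19 above and 8 below zero, beside -0.00084 over all tested genes. For 16 of the 27 (59.3%) the 3 values of either group lay wholly apart from the other 3, against 41.3% of all tested genes. These were the 11 called genes and ITGA2, ITGA6, ITGAE, LAMA4 and LAMA5.

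**Figure D1:**
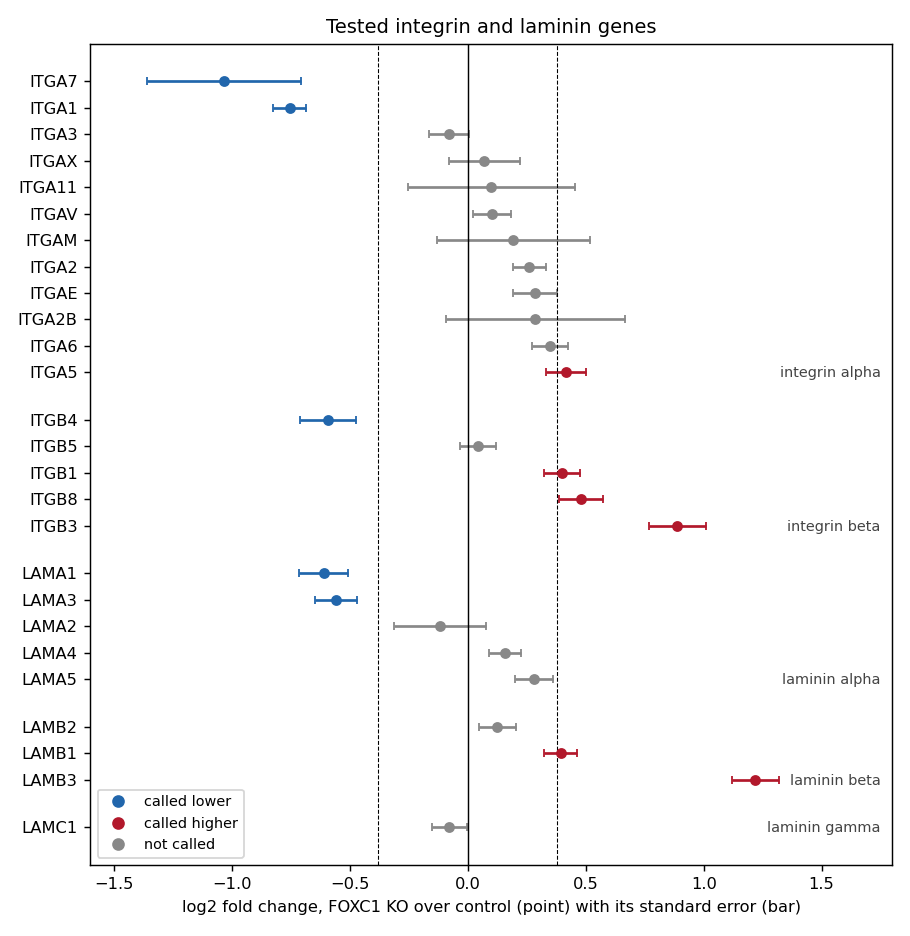
Log2 fold change of the libraries labelled KO over control for 26 tested members, grouped by chain class, with points coloured by call, bars for the standard error and dashed lines at the 1.3-fold threshold. LAMB3 (1.22) lies farthest to the right, ITGA7 (-1.03, the gene with the widest bar among those called) and ITGA1 (-0.76) farthest to the left, and no called gene stands in the laminin gamma class.

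The 11 members that were not tested were almost silent. ITGA8 and LAMC3 had 0 counts in all 6 libraries, and ITGA4, ITGA9, ITGAL and LAMB4 had at most 3 in any. ITGA10, ITGAD, ITGB6 and ITGB7 had at most 12 counts in any library. ITGB2, the beta chain of leukocyte integrins, had 0, 1 and 4 counts in control and 3, 13 and 15 in the libraries labelled KO. The CPM values of ITGB2 did not overlap between the groups, and with no filter on low counts edgeR put ITGB2 at 2.64 on the log2 scale (SE 0.62, adjusted p 0.000397). DESeq2 gave an adjusted p of 0.0302. ITGB2 reached the level of the count filter in 0 control libraries and 2 labelled KO, so it failed the filter, and a fit that admits it through the group where it is high is no independent test. PTPRC, a leukocyte surface marker, was likewise sparse, with 3, 3 and 4 counts in control and 8, 6 and 9 in the libraries labelled KO.

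Levels were compared between genes as CPM per kb of annotated exon, since longer transcripts yield more reads. ITGA3, a laminin receptor chain, was the alpha chain with the highest level (87.3 CPM per kb as control mean), followed by ITGA5 (37.2), ITGA2 (24.3), ITGAV (12.0), ITGA6 (12.0) and ITGA1 (8.34). Among beta chains ITGB1 (65.3 CPM per kb) and ITGB5 (35.9) stood far above ITGB4 (1.43), ITGB8 (1.31) and ITGB3 (0.695). LAMA4 (17.1), LAMB2 (18.1), LAMB1 (14.6) and LAMC1 (46.8) led the laminin classes in CPM per kb. Part of this order depends on the length used: per kb of the longest transcript ITGAV (29.2) exceeded ITGA2 (24.5), and LAMB1 (40.3) exceeded LAMB2 (21.9), while ITGA3, ITGB1, LAMA4 and LAMC1 led their classes under both.

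**Figure D2:**
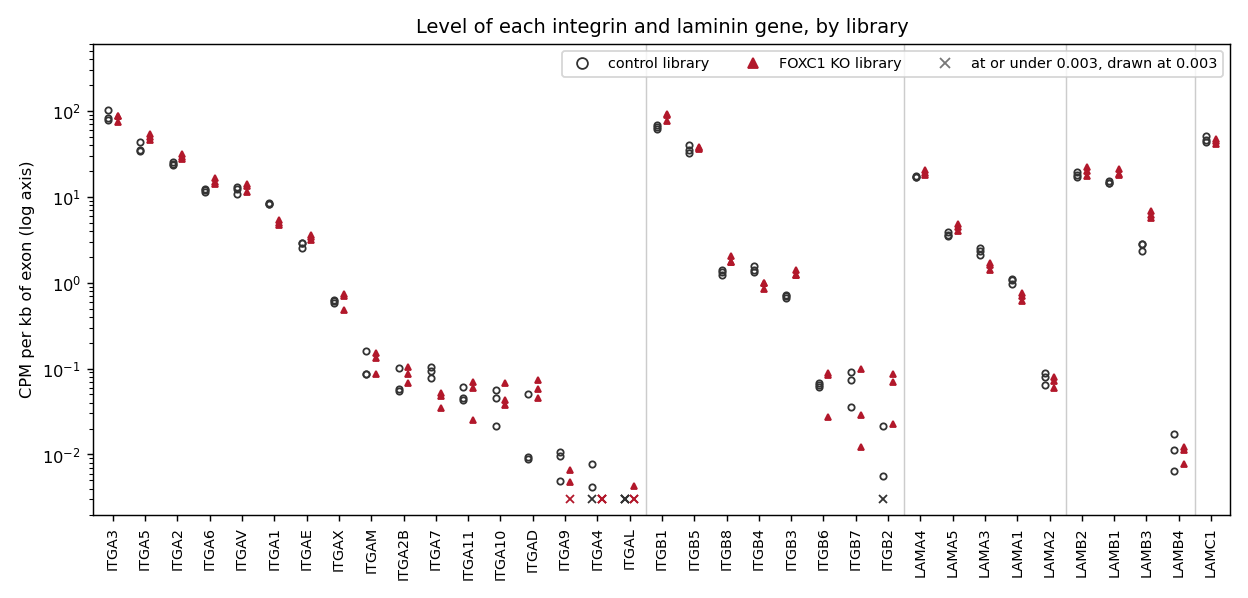
Level of 35 members with any count, in CPM per kb of exon on a log axis, with each control library as an open circle and each library labelled KO as a triangle, and crosses for values at or under 0.003. Within each class the genes run from high to low, from ITGA3 (87.3 CPM per kb as control mean) down to ITGAL, and LAMB3 and ITGA1 show separate clouds for the groups.

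Of the collagen-binding alpha chains ITGA1 fell, and its neighbour ITGA2 did not. ITGA1 (ENSG00000213949.4, chromosome 5, 52083750 to 52255039, plus strand; GRCh37 throughout) had 154, 152 and 158 CPM in control replicates 1 to 3 and 90.8, 86.0 and 98.2 CPM in the libraries labelled KO. Every library labelled KO lay below every control library, and the log2 fold change was -0.76 (SE 0.071, edgeR adjusted p 1.88e-09), a fall of 1.69-fold. ITGA2, which starts 30.1 kb beyond the end of ITGA1 on the same strand, had 186, 192 and 198 CPM in control and 246, 214 and 230.5 CPM in the libraries labelled KO. Its groups did not overlap either, in the opposite direction, but the log2 fold change of 0.26 (SE 0.070, edgeR adjusted p 0.00520) was under the 1.3-fold threshold. The ratio of ITGA2 to ITGA1 counts within a library was 1.20, 1.27 and 1.25 in control and 2.71, 2.49 and 2.35 in the libraries labelled KO. The ratio is a description, since both genes already separated the groups in opposite directions. ITGA11 was near the limit of testing (0.10, unadjusted 95% interval, as in all intervals here, -0.63 to 0.82, on the log2 scale), with 5 to 19 counts a library. PELO, a gene encoding a ribosome rescue factor whose exons share bases with ITGA1, had a log2 fold change of 0.22 (edgeR adjusted p 0.0246). Its groups did not overlap, and it was not called because the change was under the fold threshold. Other genes overlap 13.2% of the annotated exon bases of ITGA1.

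The sequences before the starts of these neighbours are shown because these adjacent genes differed in direction, only ITGA1 being called. They are the 250 bases before the RefSeq start, GRCh38.p14, ITGA1 at chr5:52787666-52787915 and ITGA2 at chr5:52989102-52989351, both plus strand and printed 5′ to 3′. Neither the forkhead core TAAACA nor the AP-1 letters TGANTCA were found on either strand of these windows, which says only that these letters are not there, and the windows are therefore wholly in lower case.
ITGA1: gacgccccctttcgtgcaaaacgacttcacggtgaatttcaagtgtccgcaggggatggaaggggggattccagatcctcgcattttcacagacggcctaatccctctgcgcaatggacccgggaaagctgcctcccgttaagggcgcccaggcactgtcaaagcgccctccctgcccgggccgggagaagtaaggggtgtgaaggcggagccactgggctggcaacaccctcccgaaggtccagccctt
ITGA2: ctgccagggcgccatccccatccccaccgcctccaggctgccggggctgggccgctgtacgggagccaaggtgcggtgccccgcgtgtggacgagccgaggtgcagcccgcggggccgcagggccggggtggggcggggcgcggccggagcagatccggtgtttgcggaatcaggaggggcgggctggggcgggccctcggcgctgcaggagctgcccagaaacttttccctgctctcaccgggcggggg
The GC content of the window was 62.0% for ITGA1 and 76.4% for ITGA2. On GRCh37 the annotation starts PELO, with a log2 fold change of 0.22, at the same base and strand as ITGA1. The ITGA1 window can therefore not be taken as particular to ITGA1.

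Among the laminin-binding alpha chains ITGA3, the most abundant, did not differ beyond the spread between libraries. It had 989, 762 and 815 CPM in control and 847, 853 and 729.7 CPM in the libraries labelled KO, overlapping groups in which control replicate 1 was the highest, with a log2 fold change of -0.08 (interval -0.25 to 0.09). ITGA6 had 80.4, 75.9 and 83.2 against 112, 93.9 and 99.5 CPM with no overlap, and its log2 fold change of 0.35 (SE 0.076, edgeR adjusted p 8.04e-04) stayed just under the fold threshold. Without control replicate 3 it was 0.38 and without KO replicate 2 0.40, both past the threshold. ITGA7 (ENSG00000135424.11, chromosome 12, 56078352 to 56110188, minus strand), the laminin receptor chain of muscle, was sparse, with 19, 17 and 24 counts in control and 8, 8 and 11 in the libraries labelled KO. Its log2 fold change was -1.03 (SE 0.33, edgeR adjusted p 0.0167); its counts reached the level of the filter in 3 control libraries and 2 labelled KO, and the call was lost with DESeq2 (adjusted p 0.143), without control replicate 3 (0.0872) and without KO replicate 2 (0.090).

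ITGB4 (ENSG00000132470.9, chromosome 17, 73717408 to 73753899, plus strand), the hemidesmosomal partner of ITGA6, fell, whereas ITGA6 was not lower. It had 10.7, 9.50 and 8.88 CPM in control and 6.68, 6.78 and 5.78 CPM in the libraries labelled KO, with all 3 of the latter below all of the former (log2 fold change -0.59, SE 0.12, edgeR adjusted p 2.66e-04). The ratio of ITGA6 to ITGB4 counts was 7.55, 7.99 and 9.37 in control libraries and 16.7, 13.8 and 17.2 in the libraries labelled KO.

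Of the alpha chains that bind RGD proteins, ITGA5 rose and ITGAV did not pass the test. ITGA5 (ENSG00000161638.6, chromosome 12, 54789045 to 54813050, minus strand), the fibronectin receptor chain, had 319, 249 and 257 CPM in control and 400.1, 364 and 336 CPM in the libraries labelled KO. The groups did not overlap, although control replicate 1 came close to KO replicate 3, and the log2 fold change was 0.42 (SE 0.083, edgeR adjusted p 2.88e-04). The fold slipped under the threshold without control replicate 2 (0.35), without control replicate 3 (0.37) and without KO replicate 1 (0.35), with the adjusted p at most 0.00451. ITGAV had 210.4, 238 and 249 CPM in control and 256, 219 and 273 CPM in the libraries labelled KO, with overlapping groups and a log2 fold change of 0.10 (interval -0.06 to 0.27). ITGA2B, the platelet chain, had 8 to 15 counts a library and an interval of -0.49 to 1.06 for its log2 fold change.

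The alpha chains of leukocyte integrins were low, and none was called. ITGAX (4.10, 4.46 and 4.36 CPM in control, 5.27, 4.96 and 3.44 CPM in the libraries labelled KO) and ITGAM (9 to 23 counts a library) had overlapping groups, with log2 fold changes of 0.07 (interval -0.24 to 0.38) and 0.19 (interval -0.47 to 0.86). Both lie with ITGAD and ITGAL in a cluster on chromosome 16. ITGAE, the chain that binds E-cadherin, had 16.6, 19.2 and 19.3 CPM in control and 24.0, 20.9 and 22.5 CPM in the libraries labelled KO, with no overlap and a log2 fold change of 0.28 (SE 0.093, edgeR adjusted p 0.0208), under the fold threshold.

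The other 3 called beta chains, ITGB1, ITGB3 and ITGB8, rose while ITGB4 fell. ITGB1 (ENSG00000150093.14, chromosome 10, 33176201 to 33294720, minus strand), the common beta chain, had 901, 945 and 1005 CPM in control and 1321, 1123 and 1315 CPM in the libraries labelled KO. KO replicate 2 was the lowest of its group and still lay above the highest control value, and the log2 fold change was 0.40 (SE 0.076, edgeR adjusted p 1.68e-04). The change was close to the 1.3-fold threshold and fell under it without control replicate 1, without KO replicate 1 and without KO replicate 3 (each 0.35 to 0.36 on the log2 scale, adjusted p at most 0.00211). ITGB3 (ENSG00000259207.3, chromosome 17, 45331193 to 45391109, plus strand), which pairs with ITGAV or ITGA2B, rose 1.85-fold from a low level, from 4.90, 4.50 and 4.83 CPM to 9.62, 8.40 and 8.45 CPM (log2 fold change 0.89, SE 0.12, edgeR adjusted p 1.31e-06). An overlapping gene on the same strand covers 33.2% of the annotated exon bases of ITGB3, and it had 0 counts in all libraries. Whether reads over the shared bases were counted for ITGB3 is not known, so its level per kb is uncertain. ITGB8 (ENSG00000105855.5, chromosome 7, 20370325 to 20455377, plus strand), the ITGAV partner that binds latent TGF-beta, had 18.5, 21.1 and 20.0 CPM in control and 26.2, 26.1 and 30.8 CPM in the libraries labelled KO (log2 fold change 0.48, SE 0.092, edgeR adjusted p 1.75e-04). ITGB5, another ITGAV partner, was not called, with 263, 211 and 228 CPM in control and 242, 248 and 233 CPM in the libraries labelled KO and a log2 fold change of 0.04 (interval -0.11 to 0.20). The ratio of ITGB3 to ITGB5 counts was 0.0186, 0.0214 and 0.0212 in control and 0.0397, 0.0339 and 0.0362 in the libraries labelled KO.

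**Figure D3:**
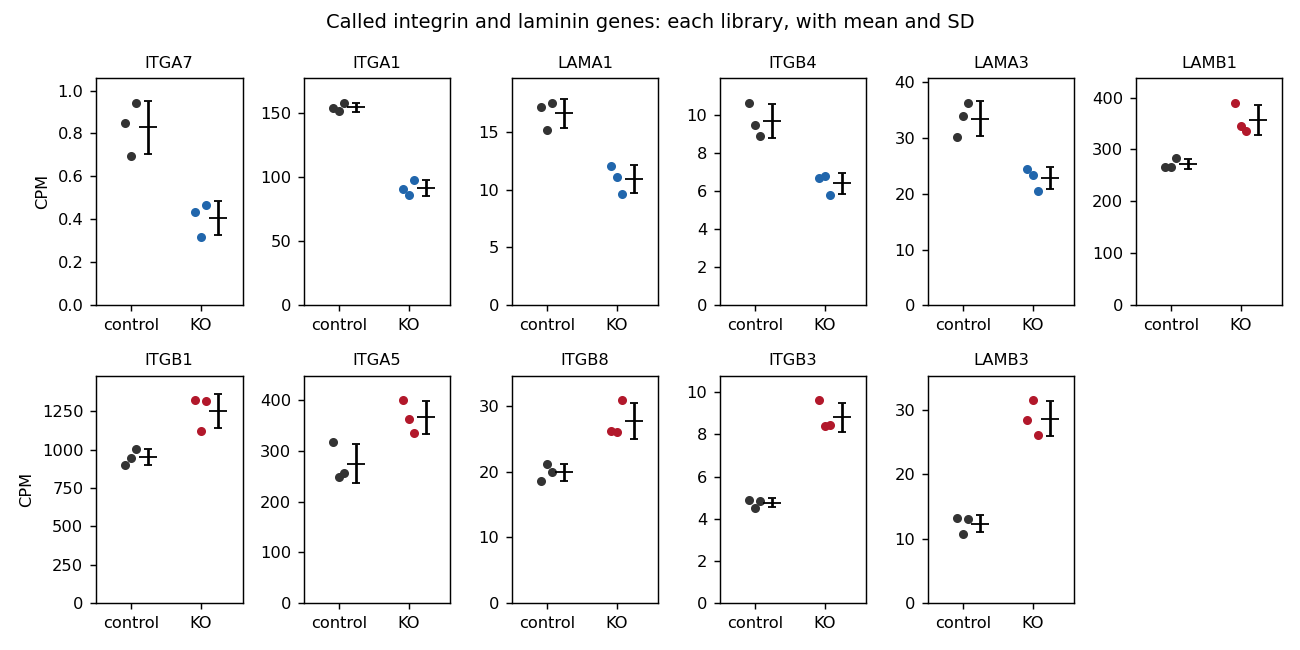
CPM of the 11 called members in each library (points) with the mean and SD of each group (bars), every axis starting at 0. In each panel the 3 control points and the 3 points of the libraries labelled KO occupy separate ranges, from 0.317 to 0.943 CPM over both groups for ITGA7 up to 901 to 1321 CPM for ITGB1.

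In the laminin alpha class LAMA3 and LAMA1 fell, and the chains with higher levels per kb, LAMA4 and LAMA5, were not called. LAMA4, the alpha chain of mesenchymal and vascular laminins, had 209, 206 and 201 CPM in control and 244, 228 and 215 CPM in the libraries labelled KO, values that did not overlap but gave an adjusted p of 0.0868 (edgeR, log2 fold change 0.16). LAMA5, the broadly expressed epithelial chain, had 54.8, 50.9 and 49.9 against 63.7, 68.8 and 56.6 CPM (log2 fold change 0.28, SE 0.081, edgeR adjusted p 0.00846), a difference under the fold threshold. LAMA3 (ENSG00000053747.11, chromosome 18, 21269417 to 21536186, plus strand), the alpha chain of the epithelial anchoring laminin, had 30.2, 33.9 and 36.4 CPM in control and 24.4, 23.4 and 20.6 CPM in the libraries labelled KO, separate ranges with a log2 fold change of -0.56 (SE 0.091, edgeR adjusted p 2.14e-05). LAMA1 (ENSG00000101680.9, chromosome 18, 6941741 to 7117796, minus strand), the alpha chain of embryonic laminin, fell from 17.2, 15.2 and 17.5 CPM to 12.1, 11.1 and 9.64 CPM (log2 fold change -0.61, SE 0.10, edgeR adjusted p 3.91e-05). LAMA2, the muscle chain, was low (2.09, 1.72 and 2.32 against 1.58, 2.10 and 1.91 CPM) with an interval of -0.52 to 0.28 for its log2 fold change.

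Among laminin beta chains LAMB3 changed most. LAMB3 (ENSG00000196878.8, chromosome 1, 209788215 to 209825770, minus strand), the beta chain that assembles with LAMA3, had 13.1, 10.8 and 13.1 CPM in control and 28.4, 31.5 and 26.1 CPM in the libraries labelled KO. The lowest value among the libraries labelled KO was 26.1 CPM against a control maximum of 13.1, a rise of 2.33-fold (log2 fold change 1.22, SE 0.10, edgeR adjusted p 9.94e-11). It was the only member called higher by more than 2-fold. LAMB1 (ENSG00000091136.9, chromosome 7, 107564244 to 107643658, minus strand), a beta chain of laminins outside the epithelial anchoring form, rose from 266, 267 and 283 CPM to 389.9, 345 and 336 CPM. Its log2 fold change of 0.39 (SE 0.071, edgeR adjusted p 9.08e-05) was close to the fold threshold and fell under it without control replicate 1 (0.37), without control replicate 2 (0.37) and without KO replicate 1 (0.32). LAMB2 had 135, 117 and 121 CPM in control and 136, 152 and 119.8 CPM in the libraries labelled KO, overlapping values with an interval of -0.04 to 0.29 for the log2 fold change. LAMB4, which lies 20.3 kb from LAMB1, had at most 3 counts in any library. LAMC1, which almost all laminins contain, had 426, 367 and 391 CPM in control and 402, 372 and 348 CPM in the libraries labelled KO (log2 fold change -0.08, interval -0.23 to 0.07), overlapping ranges.

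LAMA3 and LAMB3, which assemble into the same laminin, thus took opposite directions. Within a library the ratio of LAMB3 to LAMA3 counts was 0.436, 0.318 and 0.360 in control and 1.16, 1.35 and 1.27 in the libraries labelled KO. This pair, like those of ITGA6 with ITGB4, ITGB3 with ITGB5 and ITGA2 with ITGA1, was compared with the values of the genes known, so the ratios are given without a test.

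The windows before the starts of LAMA3 and LAMB3 are shown because these partner chains moved in opposite directions. Each holds 250 bases before a RefSeq start on the gene's own strand (GRCh38.p14), and capitals mark TAAACA (the forkhead core) or TGANTCA (the letters bound by AP-1) on either strand.
LAMA3, chr18:23872770-23873019, plus strand: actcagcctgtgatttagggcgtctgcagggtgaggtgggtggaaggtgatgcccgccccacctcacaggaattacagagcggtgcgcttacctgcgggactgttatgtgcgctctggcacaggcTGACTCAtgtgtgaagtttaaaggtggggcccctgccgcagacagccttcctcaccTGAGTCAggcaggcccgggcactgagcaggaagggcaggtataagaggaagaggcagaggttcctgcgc
LAMB3, chr1:209651375-209651624, minus strand: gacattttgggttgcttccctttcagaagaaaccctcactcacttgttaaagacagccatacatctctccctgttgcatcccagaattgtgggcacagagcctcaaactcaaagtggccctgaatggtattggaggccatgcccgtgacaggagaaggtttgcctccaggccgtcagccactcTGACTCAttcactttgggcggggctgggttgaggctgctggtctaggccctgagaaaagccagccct
LAMB3 upstream start, chr1:209652330-209652579, minus strand: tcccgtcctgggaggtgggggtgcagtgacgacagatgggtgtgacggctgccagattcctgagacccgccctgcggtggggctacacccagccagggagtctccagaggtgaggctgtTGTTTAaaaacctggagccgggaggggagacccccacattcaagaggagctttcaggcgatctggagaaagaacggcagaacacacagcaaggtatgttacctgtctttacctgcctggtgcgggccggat
The LAMA3 window, which belongs to the start of a shorter LAMA3 transcript, held 2 TGANTCA matches beginning 125 and 69 bases before the start, and the first LAMB3 window held 1 beginning 67 bases before. The upstream LAMB3 window held 1 TAAACA match beginning 131 bases before the start, which another, overlapping LAMB3 window shares. RefSeq windows were at hand for 26 of the 38 members (33 windows). TGANTCA occurred in 2 of these 33 windows, those of LAMA3 and LAMB3, and in 6.57% of 35116 windows of all genes. TAAACA occurred in 6 of the 33 and in 11% of all. These 6 count the match shared by the overlapping LAMB3 windows more than once. The longer forkhead letters GTAAACA, which contain the core, occurred in 0 of the 33 and in 2.98% of all. A match describes letters only, and binding was not measured in these libraries.

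The levels were then summed within 4 of the classes to see how the balance of chains shifted. Summed alpha chains were 202, 171 and 181 CPM per kb in control libraries and 211, 198 and 188 CPM per kb in the libraries labelled KO, and summed laminin alpha chains 24.5, 24.1 and 24.0 against 27.3, 26.2 and 24.0. Both overlapped between the groups. Summed beta chains went from 106, 101 and 107 CPM per kb to 132, 119 and 130.4 without overlap, and summed laminin beta chains from 36.8, 33.8 and 35.7 to 46.9, 47.4 and 41.2 without overlap.

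As shares of the summed alpha chains (mean ± SD, n = 3 libraries), ITGA1 made up 4.53% ± 0.367 in control and 2.49% ± 0.282 in the libraries labelled KO, ITGA5 20.1% ± 1.11 and 24.9% ± 0.711, and ITGA3 47.1% ± 2.45 and 41.5% ± 2.24. ITGB1 made up 62.3% ± 3.42 of the beta chains in control and 67.5% ± 2.52 in the libraries labelled KO, and ITGB4 1.37% ± 0.134 and 0.748% ± 0.0923. LAMB3 accounted for 7.48% ± 0.544 of the laminin beta chains in control and 13.7% ± 0.635 in the libraries labelled KO, whereas LAMA3 went from 9.56% ± 0.994 to 6.08% ± 0.140 of the laminin alpha chains and LAMA1 from 4.33% ± 0.323 to 2.66% ± 0.124. The shares depend on the length used: per kb of the longest transcript LAMB3 made up 4.39% in control and 7.98% in the libraries labelled KO, and ITGB4 0.725% and 0.386%. These sums and shares are descriptions without a test, since a share also moves when another chain of its class does.

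**Figure D4:**
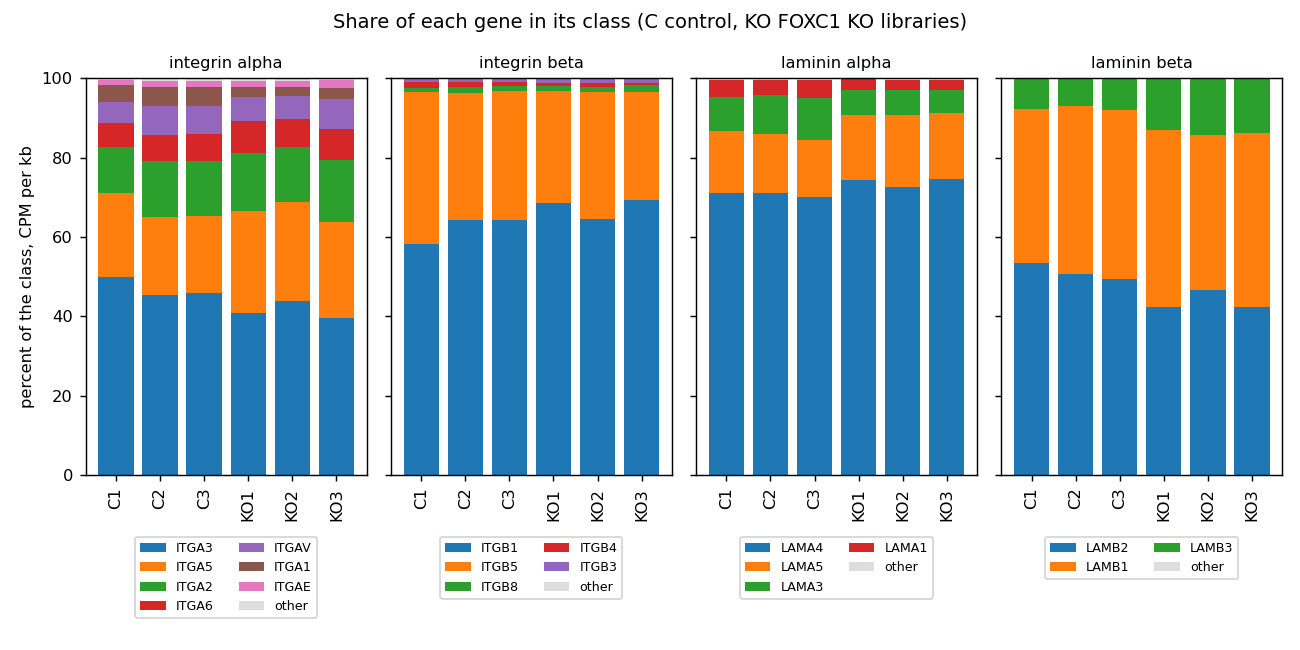
Share of each gene in the summed CPM per kb of its class for 4 classes, in percent, with a bar for each control library (C1 to C3) and each library labelled KO (KO1 to KO3). The LAMB3 segment widens from 7.48% to 13.7% and the ITGA1 segment narrows from 4.53% to 2.49% as group means.

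Genes that work with integrins and laminins were compared next, in 6 lists of 125 genes in all. Of the 111 tested, 10 were called lower and 26 higher (32.4%, against 16.0% of all genes), with a median log2 fold change of 0.046. Proteins of the basement membrane had 5 members called higher and 1 lower of 13 tested (median 0.24 on the log2 scale). The network-forming collagen genes COL4A1 (110.5, 106 and 113 CPM in control, 232, 217 and 203 CPM in the libraries labelled KO, log2 fold change 0.99) and COL4A2 (0.72) had the smallest p-values, and COL18A1 (0.61) and COL7A1 (0.39, the anchoring fibril collagen) were also called higher. COL17A1, the hemidesmosomal collagen, was called at 0.75 (edgeR adjusted p 0.0414) with only 14 to 33 counts a library, and was named after its values were seen. NTN4, a netrin that binds laminins, was the member called lower (-0.38). The changes of NTN4 and COL7A1 (each 1.31-fold) were barely past the fold threshold. NID1 (-0.13, interval -0.30 to 0.03), which links laminin to collagen, and HSPG2 (-0.01, interval -0.21 to 0.18), the perlecan gene, did not pass.

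Other integrin ligands had 9 members called higher and 5 lower of 21 tested (66.7%, median 0.13). TNC, the tenascin-C gene, had 95.2, 93.9 and 97.0 CPM in control and 409, 358 and 303 CPM in the libraries labelled KO (log2 fold change 1.90, SE 0.084, edgeR adjusted p 1.10e-16), with KO values all far above control. POSTN (periostin, 1.68), CCN2 (1.04) and TGFBI (0.86) were also called higher on the log2 scale. EDIL3, an RGD protein that binds ITGAV integrins, fell from 16.7, 18.5 and 21.7 CPM to 8.69, 7.45 and 8.96 CPM (-1.19), and CCN3 fell by 0.81 on the log2 scale. FN1, encoding fibronectin, did not pass (1229.6, 1123 and 1199.5 CPM in control, 1310.2, 1200.0 and 1063 CPM in the libraries labelled KO, log2 fold change 0.01, interval -0.15 to 0.17).

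Of 38 tested cytoplasmic adhesion genes 6 were called higher and 2 lower (21.1%, median 0.12). NEDD9, a docking protein of focal adhesions, had 7.58, 7.90 and 7.19 CPM in control and 15.6, 13.6 and 14.1 CPM in the libraries labelled KO (log2 fold change 0.93). ILK, the pseudokinase that binds beta chain tails, rose by 0.78, whereas KANK1 (talin-binding, -0.64) and PTK2B (a focal adhesion kinase relative, -0.69) fell. TLN1 (0.30), FERMT2 (0.31), VCL (0.31) and PTK2 (-0.29), which encode talin, kindlin, vinculin and focal adhesion kinase, passed the adjusted p but not the fold threshold; these 4 and the uncalled genes named in the paragraphs on related lists were chosen after their values were seen.

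The remaining lists held 8 called genes, to be read against 16.0% of all genes. Of 12 tested inhibitors and trafficking factors of integrins, DOK1 alone was called (8.33%, higher, 0.61 on the log2 scale). With DESeq2 this call was lost, and 0 genes of the list were called higher. Of 17 tested genes for dystroglycan and other laminin receptors, 4 were called (23.5%), 3 of them higher. Among the higher ones were SDC1 (syndecan-1, 0.66) and POMGNT1 (0.39, an enzyme that glycosylates dystroglycan), the latter barely past the fold threshold. SDC2 (-0.52) was called lower, while DAG1, the dystroglycan gene, had a log2 fold change of 0.02 (interval -0.14 to 0.19). Of 10 lateral partners and hemidesmosome genes, 3 were called (30.0%). CD9, a tetraspanin that associates with integrins, fell from 58.6, 54.7 and 62.2 CPM to 27.7, 25.8 and 27.9 CPM (log2 fold change -1.11), and CD82 (0.63), another tetraspanin, and DST (0.61), which encodes a hemidesmosomal plakin, rose. CD151, the tetraspanin partner of laminin-binding integrins, and PLEC, which links ITGB4 to keratins, did not pass (-0.11 and -0.18, intervals -0.27 to 0.06 and -0.36 to -0.01).

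**Figure D5:**
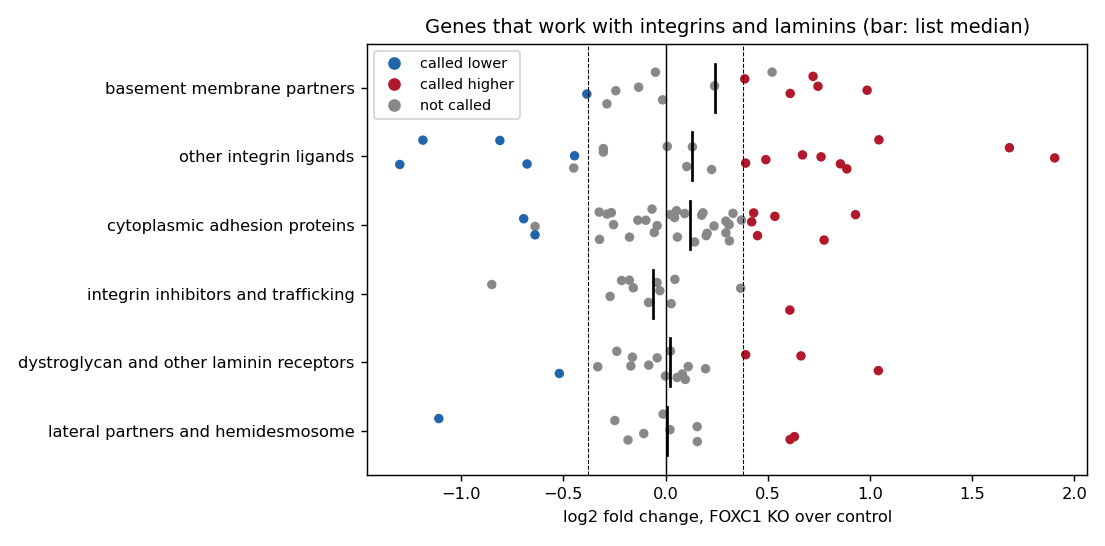
Log2 fold change of each tested gene in the 6 related lists, coloured by call, with a black bar at each list median and dashed lines at the 1.3-fold threshold. Points called higher outnumber those called lower in all 6 lists (26 against 10 over all), and TNC (1.90) is the point farthest to the right. The counts are only 1 against 0 for integrin inhibitors and trafficking, whose median is -0.062. They are 2 against 1 for lateral partners and hemidesmosome.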

How the data were processed

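The authors had aligned paired 75-base reads to hg19 with STAR and assigned them to GENCODE version 19 genes with featureCounts of Subread, and deposited raw read counts per gene. Versions, strand and multi-mapping settings are not given in the sources used here, so overlapping genes are uncertain. All 6 columns were used. Symbols, positions and lengths came from GENCODE version 44 on GRCh37, which matched 55538 of 57820 identifiers by Ensembl number, and 1 listed symbol found no match. Genes were filtered with filterByExpr (about 10 counts in 3 libraries), normalized by TMM and compared with the robust quasi-likelihood test of edgeR 4.0.16 (R 4.3.3), with group as the only term and Benjamini-Hochberg adjustment over 15647 genes. SE and 95% intervals were derived from the F statistic. CPM used TMM-scaled library sizes. The test was checked on simulated counts. Named members were all called genes and the 3 highest per kb in each class, then up to 4 called genes per related list and up to 2 of the other direction, and other names were added after values were seen. Results on 1 member and 2 other listed genes are not reported here, although counts over the lists include them. Members and lists were chosen with earlier results of these data known. The alternatives were DESeq2 1.42.0, RLE or no scaling factors, other count filters, thinning, a replicate block, leaving out each library, other fold thresholds and another gene length.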

Additional observations from a re-analysis of the deposited data

How the results depend on the processing

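Over the 13 alternative fits, 313 values of 26 single tested members kept their direction and their side of the call, 12 lost the call, 2 gained it and 5 changed sign. Called members lower or higher numbered 5 and 6 with RLE factors, library size alone, thinning and the replicate number as a replicate block, 4 and 7 with DESeq2, 5 and 7 with no filter (ITGB2 being the addition under both) and 4 and 6 at a mean of at least 50 counts. Leaving out single libraries gave 4 to 5 lower and 4 to 7 higher members, a member median of 0.039 to 0.20, 9 to 11 lower and 21 to 26 higher related genes, 1201 to 1408 lower and 1124 to 1231 higher genes in all, and a FOXC1 log2 fold change of 0.25 to 0.35 (adjusted p 0.0827 without control replicate 2 and 0.0784 without KO replicate 1). With no fold threshold there were 10 higher members, 19 lower related genes, and 2233 lower and 2372 higher genes in all. At more than 2-fold there were 1 lower and 1 higher member, 3 lower and 4 higher related genes, and 321 and 316 genes in all, as the construction of these thresholds implies. Signs changed when single libraries were left out for ITGA3 (-0.16 to 0.030, above zero without control replicate 1), ITGB5 (-0.030 to 0.13, below zero without control replicate 2), ITGA11 (-0.18 to 0.36, below zero without KO replicate 2) and ITGAX (-0.037 to 0.23, below zero without KO replicate 1 or 2), none of which was called in any fit, and the cause was not tested. Deviations of same-numbered libraries correlated at -0.0402, -0.129 and 0.0734. Differently numbered libraries were not correlated for reference, so whether the numbers pair the libraries is not settled. Ratios of the summed classes (KO over control) moved by less than 1 SD with the longest transcript as length, with library size alone and without single libraries, the alternatives run for them. Low counts limit ITGA7, ITGA11, ITGA2B, ITGAM and ITGB2, whose intervals or tests are the least certain here.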
